A study of Mus musculus with 8 samples.

Results

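The genes described here encode the factors that start and extend protein chains on ribosomes, 43 genes listed by function, with earlier results of these data already known. They were followed through the open chromatin around them in E14 cells, a wild-type line of mouse embryonic stem cells grown on gelatin in serum and LIF. ATAC-seq, in which the transposase Tn5 inserts sequencing adapters where DNA is open, was run on 4 libraries of control cells and on 4 of cells kept for 24 h in INK128 at 200 nM, which blocks the mTOR kinase and brings on a paused state. Each library came from 50000 live cells of this 1 line, and the labels do not say what the control medium held in place of INK128. A peak of the deposited table was counted for a gene when its centre lay inside the gene's span, or within 20 kb of it with that gene's end the nearest end of any protein-coding gene. This gave 233 of the table's 134407 peaks, at 42 of the 43 genes, with from 1 to 19 peaks a gene. Eef2, the elongation factor that moves the ribosome along the mRNA, had no peak under this rule and is not analysed here. Each peak is 201 bp wide, and its value is the reads in it divided by 1 factor per library, so that values are scaled reads. Positions are in mm10.

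Translation begins when eIF4E binds the cap of an mRNA, the scaffold eIF4G joins it to the helicase eIF4A, and eIF3 brings in the small ribosomal subunit carrying eIF2 with the initiator tRNA. The mTOR kinase acts on the first of these steps by phosphorylating the eIF4E-binding proteins. It acts on elongation by restraining eEF2 kinase, the product of Eef2k, through the kinases of S6. Several mRNAs of these factors, among them those of Eef1a1, Eef2 and Pabpc1, carry the pyrimidine tract that ties their own translation to mTOR. ATAC-seq reads the chromatin of the genes and not their mRNA or its translation. In bulk libraries, fewer cells with an open site and less opening per cell cannot be told apart.

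The start sites show the promoters these peaks cover. RefSeq, on GRCm38.p6, gave a promoter entry for 34 of the 43 genes, and the 250 bases before the start site were searched on both strands for 7 motifs. The sequences below include those of the 3 genes whose start-site peak was called higher in paused cells (Eif4g3, Eif2s2 and Eif5). The others were chosen for an E-box and a rise of the summed value (Eif4a1 and Eif3k), or, for Eef2k, as a gene whose fall lay elsewhere. Capitals mark motif matches on either strand, and each sequence ends at the base before the start site.
Eif4g3: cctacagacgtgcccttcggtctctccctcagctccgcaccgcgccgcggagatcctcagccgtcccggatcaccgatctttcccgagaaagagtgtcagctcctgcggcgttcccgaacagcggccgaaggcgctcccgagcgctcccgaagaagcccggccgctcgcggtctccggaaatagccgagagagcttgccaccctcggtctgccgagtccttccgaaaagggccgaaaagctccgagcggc
Eif2s2: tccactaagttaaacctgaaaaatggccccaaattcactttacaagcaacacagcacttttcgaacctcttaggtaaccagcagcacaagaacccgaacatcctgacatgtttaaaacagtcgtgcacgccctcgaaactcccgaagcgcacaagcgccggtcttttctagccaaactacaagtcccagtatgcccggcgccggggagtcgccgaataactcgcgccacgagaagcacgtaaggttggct
Eif5: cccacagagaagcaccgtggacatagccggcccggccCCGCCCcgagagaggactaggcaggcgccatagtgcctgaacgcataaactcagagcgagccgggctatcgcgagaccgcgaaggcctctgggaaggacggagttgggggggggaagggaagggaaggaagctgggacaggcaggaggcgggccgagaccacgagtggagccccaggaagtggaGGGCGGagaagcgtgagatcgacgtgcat
Eif4a1: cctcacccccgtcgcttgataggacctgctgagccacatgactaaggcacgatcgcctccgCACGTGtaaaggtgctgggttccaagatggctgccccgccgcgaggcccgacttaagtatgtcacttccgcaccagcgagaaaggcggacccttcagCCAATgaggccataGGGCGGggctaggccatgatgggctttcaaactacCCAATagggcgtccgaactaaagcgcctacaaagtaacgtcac
Eif3k: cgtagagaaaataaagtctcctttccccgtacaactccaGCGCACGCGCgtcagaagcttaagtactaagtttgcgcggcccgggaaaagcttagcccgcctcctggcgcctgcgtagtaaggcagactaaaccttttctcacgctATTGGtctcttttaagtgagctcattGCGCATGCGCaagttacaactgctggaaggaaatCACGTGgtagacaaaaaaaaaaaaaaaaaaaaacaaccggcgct
Eef2k: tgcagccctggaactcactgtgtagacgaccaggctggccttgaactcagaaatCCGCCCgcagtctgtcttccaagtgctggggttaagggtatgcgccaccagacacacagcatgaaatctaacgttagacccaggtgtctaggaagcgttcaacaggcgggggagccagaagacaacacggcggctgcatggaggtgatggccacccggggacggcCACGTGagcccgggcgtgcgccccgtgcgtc
These windows lie at chr4:137993205-137993454 on the plus strand, chr2:154892907-154893156 on the minus strand, chr12:111537851-111538100 (plus), chr11:69672424-69672673 (minus), chr7:28981889-28982138 (minus) and chr7:120842581-120842830 (plus). The peak of Eif4g3 covered 173 of the 250 bases, that of Eif5 157, that of Eif4a1 201, that of Eif3k 97, that of Eif2s2 95 and that of Eef2k 36.

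The motifs were CACGTG (the E-box bound by Myc and TFEB family factors), GGGCGG (the GC box of Sp and Klf factors), CCAAT (NF-Y), CCGGAAG (ETS factors), GCGC followed by any base and TGCGC (NRF1), TGACGTCA (CREB and ATF) and TATAAA (the TATA box). CACGTG was found in 8 of the 34 windows (23.5%), against 6.64% of the windows of 17492 protein-coding genes. These 8 genes were Eef2, Eef2k, Eif1b, Eif3f, Eif3k, Eif4a1, Eif4g1 and Eif4h. In Eef2k the E-box begins 31 bases before the start site, in Eif3k 44 bases and in Eif4a1 189 bases before it. GGGCGG was found in 22 windows (64.7%, against 42.7%), CCGGAAG in 6 (17.6%, against 9.13%) and the NRF1 motif in 4 (11.8%, against 5.30%). CCAAT was found in 8 (23.5%, against 36.3%), TATAAA in 4 (11.8%, against 12.4%) and TGACGTCA in 0 (against 2.01%). No window of these genes had overlapping matches of different motifs, and 6 of the 34 windows, those of Eif4g3 and Eif2s2 among them, had no match at all. A match describes the letters and does not show that a factor is bound.

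The first question was how many peaks of these genes changed in paused cells. Of the 233 peaks, 222 reached a mean of 10 or more over the 8 libraries and were tested with limma-trend on log2(value + 1), with Benjamini-Hochberg adjustment over the 127402 peaks of the table that passed the same filter. In paused cells 14 peaks (6.31%) were called higher at an adjusted p under 0.05, where 11.0% of all tested peaks were called higher, and 15 (6.76%) were called lower, where 2.91% of all were. The median log2 change of the 222 peaks was -0.01, and that of all tested peaks was 0.10. This background depended on strength, with a median of 0.18 for all tested peaks averaging 50 or more and 0.01 for those under 50. Each peak's change given here is to be read against the median for its strength. All 4 paused values lay above all 4 control values at 17 peaks (13.0% of all tested peaks did so) and below them at 20 (4.36% of all). In the authors' deposited table, 12 of the 233 peaks have an FDR under 0.05 and are higher in paused cells (9.19% of all peaks in the table), and 8 are lower (1.80% of all). When each library was left out in turn, the count of higher calls was 5 without paused replicate 4, 6 without paused replicate 2, and 7 without control replicate 1 or control replicate 3. The count of lower calls was 8 without control replicate 1. Nothing in the labels says that replicates came from separate cultures, so p-values measure the spread between these libraries only.

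Higher and lower calls fell on peaks of different strength. Among the 78 peaks whose mean value reached 50, a split chosen after the values were seen, 13 were called higher (16.7%, against 18.7% of all peaks of that strength) and 0 lower (against 1.35%). Of these 78, 61 had a change above 0, and their median log2 change was 0.17, against 0.18 for all peaks of that strength. The 144 tested peaks under 50 had 1 higher call (0.694%, against 6.67% of all) and 15 lower calls (10.4%, against 3.76%), with a median log2 change of -0.23, against 0.01. The strong peaks of these genes thus had about the background share of higher calls, and the weak ones had a larger share of lower calls than weak peaks elsewhere. Strength went with position: the 49 peaks within 1 kb of an end of their gene had a median value of 187, and the 173 tested peaks farther away one of 22.8. All 15 lower calls lay more than 1 kb from the gene's ends, the nearest at 2473 bp, 9 of them inside the gene and 6 outside. Few reads stood behind them, from 42 to 175 per peak in control replicate 1, the deepest library, from 9 to 51 in the other controls and from 1 to 33 in the paused libraries.

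**Figure D1:**
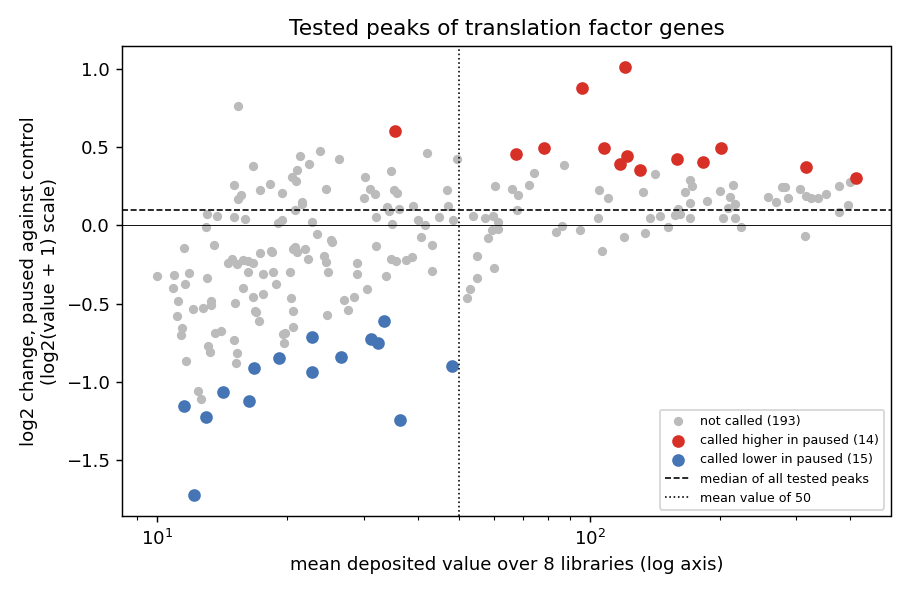
Each point is 1 of the 222 tested peaks, with its mean deposited value over the 8 libraries on a log axis and its log2 change in paused against control cells. The 15 lower calls all lie left of the dotted line at a value of 50, and 13 of the 14 higher calls lie right of it; the dashed line is the median of all tested peaks (0.10).

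This balance depended on how the libraries were scaled. Of the 29 calls, 48.3% were higher with the deposited values. After rescaling of the recovered reads with TMM factors, 3 peaks were called higher and 18 lower (14.3% of calls higher), where 5.99% and 4.15% of all tested peaks were. After a loess correction of each library on peak strength, 2 were called higher and 10 lower (16.7% higher), where 5.10% and 3.50% of all were. All 15 lower calls were kept after TMM rescaling and 9 after the loess correction, while 3 and 2 of the 14 higher calls were kept. DESeq2 kept 5 of the lower and 2 of the higher calls. Of the 29 peaks, 5 were called in 5 other tests or scalings (edgeR with TMM, DESeq2, and limma-trend after TMM, loess or total-read scaling) and also in the 8 fits that each left out 1 library. These were the rises inside Eif4g3 and beside Eif3b and the falls inside Eef1d and Eef2k and upstream of Eif5.

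**Figure D2:**
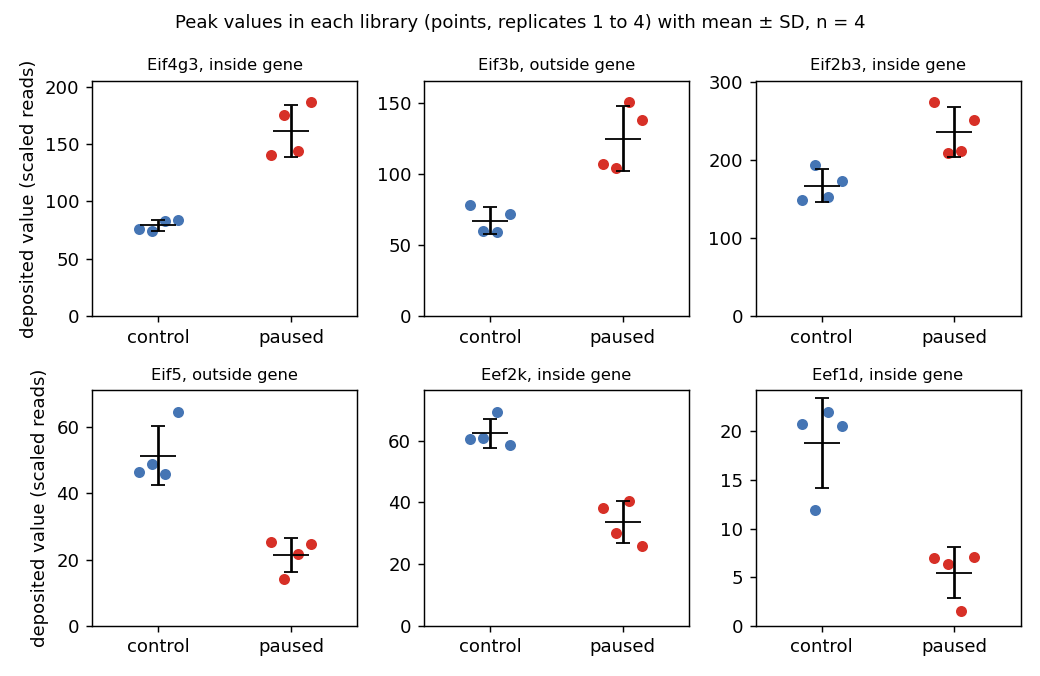
Deposited values (scaled reads, each axis from 0) of the 6 peaks with the lowest adjusted p, in control and paused libraries, with points for replicates 1 to 4 and bars for the mean ± SD. At these 6 peaks, 3 that rose and 3 that fell, the paused libraries do not overlap the controls.

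The cap-binding group, eIF4 with the poly(A)-binding protein gene Pabpc1, had shares of calls near those of all tested peaks. Of its 68 tested peaks, 7 were called higher (10.3%, against 11.0% of all) and 2 lower (2.94%, against 2.91%), and the median log2 change was 0.05. Its 7 higher calls lay at 3 genes: 3 in Eif4g3, which encodes another form of the scaffold eIF4G, 3 in Eif4e2, which encodes a cap-binding relative of eIF4E known as a repressor of translation, and 1 beyond Eif4e itself. The 2 lower calls lay inside Eif4a2, a helicase gene, and beyond Pabpc1. No peak of Eif4a1, Eif4b, Eif4g1, Eif4g2 or Eif4h was called.

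The largest rise of all 222 peaks lay inside Eif4g3, at chr4:138005898-138006098, 12542 bp from the RefSeq start site. Its values were 76.4, 74.0, 83.0 and 83.8 in control replicates 1 to 4 and 141, 175, 144 and 186 in paused replicates 1 to 4. The lowest paused value was well above the highest control value (log2 change 1.01 ± 0.13 SE, adjusted p = 1.86e-06 by limma-trend). The median change of all tested peaks averaging 50 or more was 0.18. The peak at the start site of Eif4g3, centred 73 bp from it at chr4:137993282-137993482, had values of 143, 128, 146 and 126 in control replicates 1 to 4 and 155, 202, 185 and 192 in paused replicates 1 to 4. These groups did not overlap either (log2 change 0.43 ± 0.12 SE, adjusted p = 0.0138 by limma-trend). The third called peak of the gene, at chr4:138119851-138120051, had values of 103 ± 9.07 in control and 141 ± 10.2 in paused libraries (SD, n = 4 each), again without overlap (log2 change 0.44 ± 0.13 SE, adjusted p = 0.0143 by limma-trend). With 1 library left out, the call at the start site was lost without paused replicate 2 or 4 (adjusted p from 0.053 to 0.0563), and that of the third peak without control replicate 3, or without paused replicate 4 (adjusted p from 0.0519 to 0.0588). Neither of these 2 peaks was called after TMM rescaling, with adjusted p of 0.067 and 0.0646. The other 16 peaks of Eif4g3 were not called, 4 of them being too weak to test, and their changes ran from -1.11, at a peak with a mean value of 12.6, to 0.48.

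**Figure D3:**
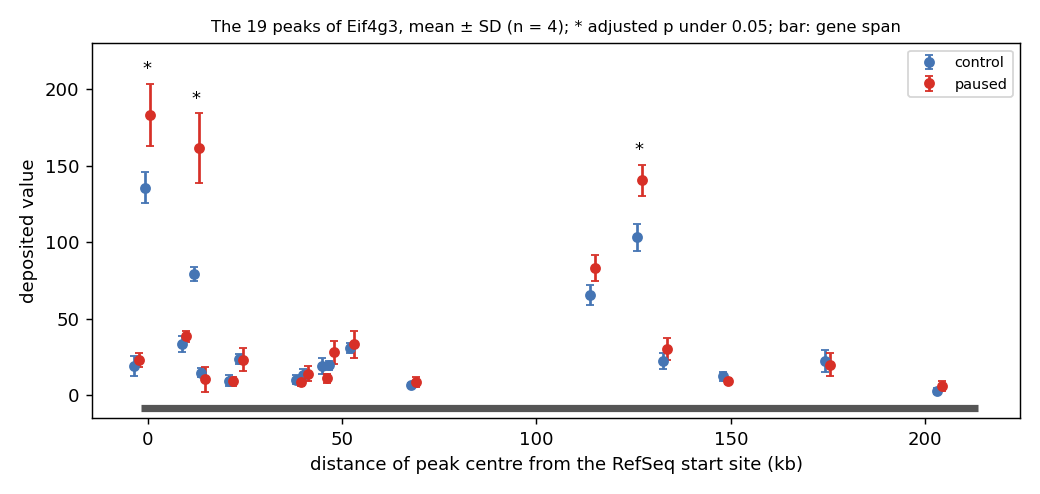
Mean ± SD (n = 4) of the deposited value at the 19 peaks of Eif4g3 in control and paused libraries, by distance in kb of the peak's centre from the RefSeq start site, with the gene's span as a bar. The 3 called peaks (asterisks) are the strongest 3 of the gene, and paused means exceed control means at each.

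Of the 3 called peaks inside Eif4e2, the one at chr1:87218017-87218217 had values of 61.5, 60.9, 67.7 and 69.1 in the controls and 77.3, 106, 96.2 and 89.0 in the paused libraries, without overlap (log2 change 0.49 ± 0.14 SE, adjusted p = 0.0175 by limma-trend). The peak at chr1:87226465-87226665 had values of 157 ± 17.8 in control and 209 ± 35.4 in paused libraries (SD, n = 4 each), and the lowest paused value lay just under the highest control value (log2 change 0.41 ± 0.12 SE, adjusted p = 0.0222 by limma-trend). That at chr1:87239187-87239387, 1201 bp from the far end of the gene, had values of 101 ± 11.1 in control and 133 ± 15.3 in paused libraries (SD, n = 4 each), without overlap (log2 change 0.39 ± 0.13 SE, adjusted p = 0.0383 by limma-trend). Their calls were lost, in the same order, without control replicate 1, or without paused replicate 2 (adjusted p from 0.0543 to 0.0715); without control replicate 1 or 2, or without paused replicate 4 (adjusted p from 0.0522 to 0.148); and without control replicate 1 or 2, or without paused replicate 1, 3 or 4 (adjusted p from 0.0612 to 0.129). The peak counted for Eif4e lay 19364 bp beyond its end, at chr3:138578960-138579160, with values of 56.8 ± 5.09 in control and 78.1 ± 5.78 in paused libraries (SD, n = 4 each) and no overlap (log2 change 0.45 ± 0.15 SE, adjusted p = 0.0349 by limma-trend). It was not called without control replicate 2 or 3, or without paused replicate 2, 3 or 4 (adjusted p from 0.0621 to 0.0874). After TMM rescaling none of these 4 peaks was called (adjusted p from 0.0682 to 0.143).

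The fall inside Eif4a2, at chr16:23111559-23111759, had values of 29.7, 41.8, 30.5 and 33.8 in the controls and 16.1, 15.8, 14.0 and 31.6 in the paused libraries. Paused replicate 4, with 31.6, overlapped the controls and stood apart from the other 3 paused libraries (log2 change -0.84 ± 0.25 SE, adjusted p = 0.0178 by limma-trend). The fall 7396 bp beyond Pabpc1, at chr15:36588162-36588362, had values of 19.6 ± 3.68 in control and 8.86 ± 1.69 in paused libraries (SD, n = 4 each), without overlap (log2 change -1.06 ± 0.31 SE, adjusted p = 0.0191 by limma-trend). The Eif4a2 call was lost without control replicate 2, or without paused replicate 3 (adjusted p from 0.0508 to 0.0691), and that of Pabpc1 without control replicate 1 or 2 (adjusted p from 0.0712 to 0.0741).

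The eIF3 genes encode the subunits of the large complex that holds the small ribosomal subunit and the mRNA together. Of their 70 tested peaks at 13 genes, 3 were called higher (4.29%, against 11.0% of all tested peaks) and 4 lower (5.71%, against 2.91%), with a median log2 change of -0.04. The second largest rise of all 222 peaks lay 873 bp beyond an end of Eif3b, at chr5:140444131-140444331, outside any protein-coding gene. This peak was 24926 bp from the start site of Eif3b and 1220 bp from the nearest RefSeq start site of any gene. Its values were 78.1, 59.7, 59.3 and 72.0 in control replicates 1 to 4 and 107, 104, 151 and 138 in paused replicates 1 to 4, without overlap (log2 change 0.88 ± 0.15 SE, adjusted p = 7.04e-05 by limma-trend). A weak peak inside Eif3b, at chr5:140440312-140440512, fell: its values were 20.4, 22.7, 30.5 and 16.2 in the controls and 6.92, 6.31, 15.5 and 11.7 in the paused libraries (log2 change -1.12 ± 0.32 SE, adjusted p = 0.0143 by limma-trend). The 2 peaks lie 3819 bp apart, and at both the groups did not overlap. The call of the fall was lost without control replicate 3 (adjusted p = 0.0693).

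The rise at Eif3e, 48 bp outside the gene's end at chr15:43282684-43282884, had values of 115 ± 9.41 in control and 147 ± 12.6 in paused libraries (SD, n = 4 each), without overlap (log2 change 0.35 ± 0.12 SE, adjusted p = 0.0489 by limma-trend). That of Eif3k lay 3897 bp beyond the gene at chr7:28967375-28967575, with values of 27.7 ± 4.03 in control and 43.2 ± 10.5 in paused libraries (SD, n = 4 each); paused replicate 3, with 27.9, lay among the controls (log2 change 0.60 ± 0.21 SE, adjusted p = 0.0472 by limma-trend). It was the 1 higher call under a mean value of 50. Both were near the threshold: the Eif3e call was lost without control replicate 1, 2 or 3, or without paused replicate 1, 2, 3 or 4 (adjusted p from 0.0514 to 0.139), and the Eif3k call without control replicate 1, 2, 3 or 4, or without paused replicate 1, 2 or 4 (adjusted p from 0.0519 to 0.163). Neither was called in the 5 other tests or scalings, where adjusted p ran from 0.144 to 0.468 for Eif3e and from 0.0996 to 0.282 for Eif3k. Inside Eif3h a peak fell at chr15:51851404-51851604 with values of 18.5 ± 5.67 in control and 7.39 ± 2.51 in paused libraries (SD, n = 4 each; log2 change -1.22 ± 0.35 SE, adjusted p = 0.0149 by limma-trend). A second one fell at chr15:51856685-51856885, with 28.3 ± 3.46 in control and 17.2 ± 4.55 in paused libraries (SD, n = 4 each; log2 change -0.71 ± 0.25 SE, adjusted p = 0.0483 by limma-trend). The fall counted for Eif3c lay 13281 bp outside it at chr7:126533530-126533730, with 29.8 ± 4.51 in control and 15.8 ± 5.42 in paused libraries (SD, n = 4 each; log2 change -0.93 ± 0.27 SE, adjusted p = 0.0154 by limma-trend). At these 3 peaks the groups did not overlap. Their calls were lost, in that order, without control replicate 4 (adjusted p = 0.0786); without control replicate 1, 2, 3 or 4, or without paused replicate 1, 2 or 3 (adjusted p from 0.0509 to 0.128); and without paused replicate 2 (adjusted p = 0.0799). Eif3a, Eif3d, Eif3f, Eif3g, Eif3i, Eif3j1, Eif3l and Eif3m had no called peak. Eif3j1 has a near-identical copy, Eif3j2, which had no peak, and how reads that match both were handled is not given in the sources used here.

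eIF2 carries the initiator tRNA, and eIF2B recharges eIF2 with GTP. Of the 12 tested peaks of Eif2s1, Eif2s2 and Eif2a, 1 was called higher (8.33%, against 11.0% of all) and 1 lower (8.33%, against 2.91%). The start-site peak of Eif2s2, the gene of the beta subunit of eIF2, centred 5 bp from the start at chr2:154892801-154893001, had values of 270.0, 301, 249 and 284 in control replicates 1 to 4 and 313, 391, 360.0 and 368 in paused replicates 1 to 4. The groups did not overlap (log2 change 0.37 ± 0.11 SE, adjusted p = 0.0145 by limma-trend), and the call was lost without control replicate 3, or without paused replicate 2 or 4 (adjusted p from 0.0548 to 0.0642). It was also lost in the 5 other tests or scalings, with log2 changes from 0.16 to 0.27 and adjusted p from 0.0791 to 0.285. Eif2a encodes eIF2A, a protein apart from the eIF2 complex. A peak 2590 bp beyond it, at chr3:58559991-58560191, fell, with values of 38.5 ± 4.28 in control and 23.8 ± 8.14 in paused libraries (SD, n = 4 each) and no overlap (log2 change -0.72 ± 0.23 SE, adjusted p = 0.0268 by limma-trend). The call was lost without control replicate 1 or 4, or without paused replicate 3 or 4 (adjusted p from 0.066 to 0.127). Eif2s1, the gene of the alpha subunit that stress kinases phosphorylate, had 1 peak, with values of 33.5, 37.0, 30.5 and 45.5 in control replicates 1 to 4 and 26.5, 44.2, 14.0 and 53.9 in paused replicates 1 to 4. Its paused values spread on both sides of the controls.

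Of the 26 tested peaks of the eIF2B genes, 2 were called higher (7.69%, against 11.0% of all) and 1 lower (3.85%, against 2.91%). Of these 3, 2 lay inside Eif2b3, the gene of the gamma subunit. The rise there, at chr4:117056710-117056910, had values of 149, 193, 152 and 173 in control replicates 1 to 4 and 273, 208, 211 and 251 in paused replicates 1 to 4. The groups did not overlap (log2 change 0.49 ± 0.12 SE, adjusted p = 0.00434 by limma-trend). The call held in the 8 fits with 1 library left out and after TMM rescaling, but not in DESeq2 or after the loess or total-read scaling (adjusted p up to 0.101). The fall, at chr4:117063078-117063278 and 6368 bp from the rise, had values of 38.7, 28.7, 42.3 and 51.4 in the controls and 32.3, 22.1, 12.4 and 31.6 in the paused libraries, which overlapped (log2 change -0.75 ± 0.24 SE, adjusted p = 0.033 by limma-trend). It lost its call without control replicate 1, 3 or 4, or without paused replicate 2 or 3 (adjusted p from 0.0627 to 0.163). The peak counted for Eif2b5, the gene of the catalytic epsilon subunit, lay 18453 bp outside it at chr16:20480242-20480442. Its values were 77.4, 83.6, 81.3 and 115 in the controls and 103, 153, 110.2 and 139 in the paused libraries, where control replicate 4 lay above the others and above 2 paused libraries (log2 change 0.50 ± 0.14 SE, adjusted p = 0.0178 by limma-trend). This call was lost without control replicate 1 or 3, or without paused replicate 2 or 4 (adjusted p from 0.0514 to 0.0901), and of the 5 other tests or scalings it was made by edgeR with TMM alone (adjusted p up to 0.188 in the others). Eif2b1, Eif2b2 and Eif2b4 had no called peak.

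Eif1, Eif1b, Eif5 and Eif5b act in scanning, start codon choice and the joining of the large subunit. Of their 25 tested peaks, 1 was called higher (4.00%, against 11.0% of all) and 4 lower (16.0%, against 2.91%). Of these 5, 3 lay at Eif5, whose product triggers GTP hydrolysis by eIF2 at the start codon. The peak at the start site of Eif5, centred 57 bp before it at chr12:111537944-111538144, was the strongest called peak of all these genes, with values of 366, 393, 371 and 345 in control replicates 1 to 4 and 496, 431, 484 and 411 in paused replicates 1 to 4. No paused value was as low as any control value (log2 change 0.30 ± 0.10 SE, adjusted p = 0.0385 by limma-trend). The change was small, and the call was lost without control replicate 1, 3 or 4, or without paused replicate 1, 2 or 3 (adjusted p from 0.0539 to 0.117). It was also lost in the 5 other tests or scalings, with log2 changes from 0.09 to 0.20 and adjusted p from 0.195 to 0.569. Upstream, 4679 bp from the start site at chr12:111533322-111533522, a peak fell, with values of 46.3, 49.0, 45.7 and 64.7 in control replicates 1 to 4 and 25.4, 14.2, 21.7 and 24.6 in paused replicates 1 to 4. Each paused value was under the lowest control value by a wide margin (log2 change -1.24 ± 0.21 SE, adjusted p = 9.85e-05 by limma-trend). Inside the gene, at chr12:111543733-111543933, a weaker peak fell without overlap, with 24.6 ± 2.98 in control and 13.6 ± 4.17 in paused libraries (SD, n = 4 each; log2 change -0.85 ± 0.27 SE, adjusted p = 0.0332 by limma-trend). Its call was lost without control replicate 2, 3 or 4, or without paused replicate 2 or 4 (adjusted p from 0.07 to 0.0955). The 3 peaks of Eif5 thus changed in both directions, as did those of Eif3b and Eif2b3. These were the 3 genes with calls in both directions among the 19 with any called peak.

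Both called peaks of Eif1 lay outside it and fell. The nearer one, 3554 bp away at chr11:100316295-100316495, had values of 40.8 ± 3.42 in control and 26.3 ± 1.06 in paused libraries (SD, n = 4 each), without overlap (log2 change -0.61 ± 0.20 SE, adjusted p = 0.0303 by limma-trend). The other, 15015 bp away at chr11:100304834-100305034, had 15.5 ± 2.49 in control and 7.61 ± 5.25 in paused libraries (SD, n = 4 each) and overlapped (log2 change -1.15 ± 0.40 SE, adjusted p = 0.0464 by limma-trend). Their calls were lost without control replicate 1, 2 or 3, or without paused replicate 2 or 4 (adjusted p from 0.0525 to 0.106), and without control replicate 1, 2, 3 or 4, or without paused replicate 3 or 4 (adjusted p from 0.0615 to 0.193). Eif1b and Eif5b had no called peak. Eif6, whose product keeps the large ribosomal subunit from joining too early, had 1 peak, at the end of the gene, with values of 201, 201, 227 and 198 in control replicates 1 to 4 and 209.9, 244, 248 and 209.7 in paused replicates 1 to 4. The groups overlapped there.

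Among 20 tested peaks at 6 elongation factor genes, 0 were called higher (11.0% of all tested peaks were) and 3 lower (15.0%, against 2.91%), which is few peaks to set against those shares. Eef2k, the gene of the kinase that inhibits eEF2, has RefSeq start sites besides that of the window shown above. The fall inside it lay at chr7:120875496-120875696, 24407 bp from the nearest of these others. Its values were 60.5, 60.9, 69.4 and 58.8 in control replicates 1 to 4 and 38.1, 30.0, 40.3 and 25.8 in paused replicates 1 to 4, and the highest paused value was far under the lowest control value (log2 change -0.90 ± 0.18 SE, adjusted p = 0.000624 by limma-trend). The peak at the start of Eef2k was not called, with values of 320.1 ± 22.7 in control and 309 ± 50.1 in paused libraries (SD, n = 4 each; log2 change -0.06 ± 0.11 SE, adjusted p = 0.748 by limma-trend), and its change ran from -0.27 after the loess correction (adjusted p = 0.064) to 0.046 without paused replicate 2. The largest fall of all 222 peaks lay inside Eef1d, a subunit gene of the complex that recharges eEF1A, at chr15:75906565-75906765. Its values were 20.7, 11.9, 22.0 and 20.6 in control replicates 1 to 4 and 6.92, 6.31, 1.55 and 7.03 in paused replicates 1 to 4, without overlap (log2 change -1.72 ± 0.40 SE, adjusted p = 0.00284 by limma-trend). Only 6, 4, 1 and 6 reads were recovered there in paused replicates 1 to 4, and the value of 3 reads is 1.04 in control replicate 1 and 5.08 in control replicate 3. The third fall lay inside Eef1g, another subunit gene of that complex, at chr19:8971169-8971369, with 22.3 ± 7.18 in control and 11.3 ± 3.05 in paused libraries (SD, n = 4 each) and no overlap (log2 change -0.91 ± 0.30 SE, adjusted p = 0.0379 by limma-trend). It lost its call without control replicate 1 or 3, or without paused replicate 1 or 4 (adjusted p from 0.0544 to 0.159). The calls in Eef2k and Eef1d held in all 8 fits that left out 1 library.

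The promoters were examined next, as the strongest peak centred within 1 kb of either end of each gene. Either end was used because strand was not in the table of gene spans, and for 26 of the genes it lay within 1 kb of the gene's own RefSeq start site. Such a peak was found for 39 genes, and not for Eif2s1, Eif3g, Eif4g3 and Eef2. Their control means ran from 15.1 at Eif5b to 377 at Eif4g2. In paused cells 3 were called higher, those of Eif2s2, Eif3e and Eif5 described above, where 11.3% of such peaks of all genes were, and 0 lower, where 0.742% of all were. All 3 calls were lost in edgeR with TMM, in DESeq2 and after TMM, loess or total-read scaling. A change above 0 was found for 34 of the 39. Their median log2 change was 0.18, the same to 2 decimals as for all 13739 genes with such a peak. Of the 39, 17 lay above the median of all genes. That most changes lay above 0 depended on the scaling: after TMM rescaling 28 of 39 did, with a median of 0.08, and after the loess correction 16 of 39 did, with a median of -0.03. The medians of all genes were then 0.08 and -0.01. Paused values were all above the controls at 7 of the 39 peaks, where 16.0% of the peaks of all genes were. The count of 3 calls was 0 without control replicate 3 or paused replicate 2, and 1 without control replicate 1, paused replicate 3 or paused replicate 4.

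The third highest change at a gene end after Eif2s2 and Eif3e was that of Eif3b, at chr5:140419271-140419471, with 127 ± 30.6 in control and 157 ± 19.3 in paused libraries (SD, n = 4 each; log2 change 0.33 ± 0.14 SE, adjusted p = 0.108 by limma-trend). The lowest 3 were those of Eif2b4 at chr5:31188348-31188548, Eif4e at chr3:138558678-138558878 and Eef2k, given above. For Eif2b4 the values were 41.5 ± 2.89 in control and 36.0 ± 4.90 in paused libraries (SD, n = 4 each; log2 change -0.20 ± 0.18 SE, adjusted p = 0.494 by limma-trend), and for Eif4e 33.3 ± 4.37 in control and 30.8 ± 8.56 in paused libraries (SD, n = 4 each; log2 change -0.13 ± 0.21 SE, adjusted p = 0.722 by limma-trend). The Eif2b4 and Eif4e peaks lay 4691 and 31510 bp from the start sites of those genes, so they do not stand for their promoters. The same holds for the peaks of Eif5b and Eef1b2, which lay 57233 and 4373 bp from theirs. For Eif3e no start site was given, so whether its called peak lies at its promoter is not known here. The start-site peak of Eif4e lay 1029 bp inside the gene's span with a log2 change of 0.05. When peaks were taken instead within 1 kb of a RefSeq start site, a choice made after seeing the data, 28 genes had one and 3 were called higher, those of Eif5, Eif2s2 and Eif4g3. The share over all genes was not computed for start-site peaks. Of the gene-end peaks of all genes, 11.3% were called higher. At 7 of the 39 genes the peak was shared with another gene's end, as Eif4a1 with Senp3 and Eif3k with Map4k1.

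**Figure D4:**
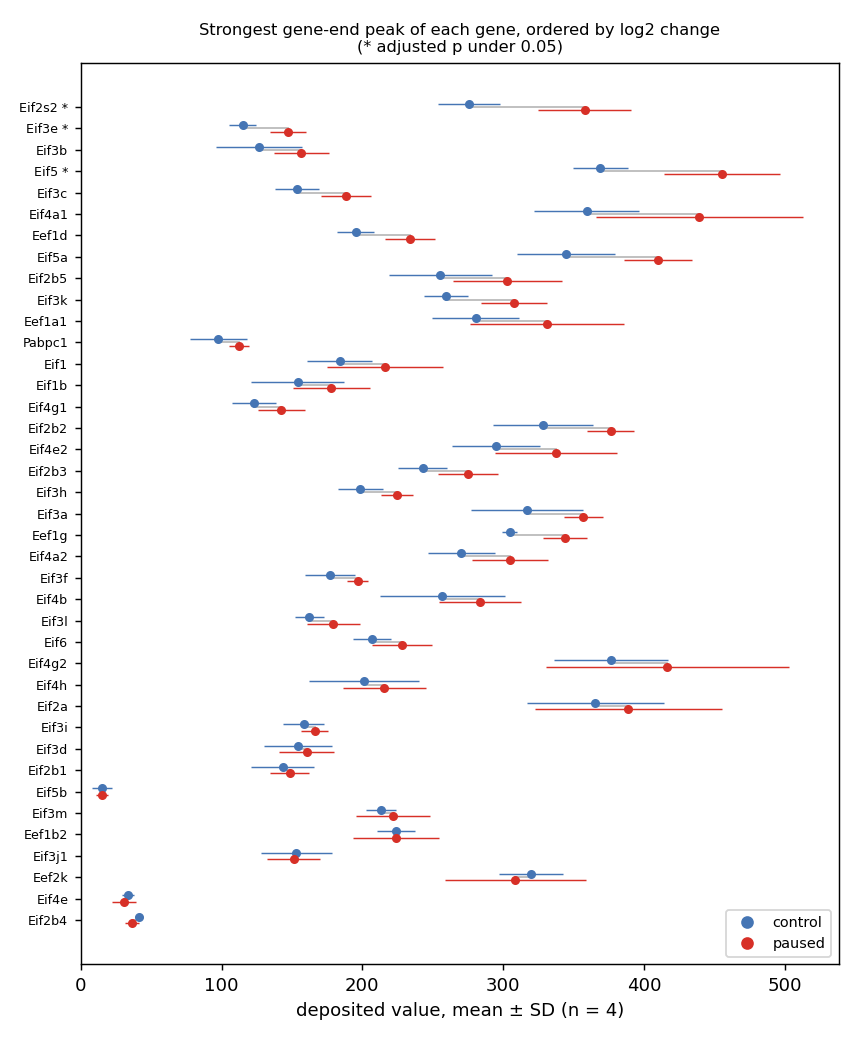
Control and paused means ± SD (n = 4) of the deposited value at the strongest gene-end peak of each of 39 genes, ordered by log2 change from Eif2s2 (0.37) to Eif2b4 (-0.20). Paused means are above control means for most genes, the error bars overlap for many, and asterisks mark the 3 called peaks.

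To count genes and not peaks, the values of all peaks of a gene were summed and tested with limma-trend across the 18213 genes with a mean sum of at least 10. Of the 42 genes with a peak, 9 were called higher (21.4%, where 28.0% of all genes were) and 0 lower (1.28% of all were). Their median log2 change was 0.08, against 0.14 for all genes, and 12 of the 42 lay above 0.14. The called genes were Eif4g3, Eif4a1 and Eif4e2 of the cap-binding group, Eif3b, Eif3e and Eif3k, Eif2s2, Eif2b5, and Eif5a, an elongation factor that helps ribosomes past slow stretches. The sum of Eif4g3 had values of 699, 644, 599 and 633 in control replicates 1 to 4 and 799, 894, 779 and 894 in paused replicates 1 to 4, without overlap (log2 change 0.39 ± 0.07 SE, adjusted p = 0.000161 by limma-trend). The sum of Eif2s2 was 375 ± 30.1 in control and 481 ± 37.2 in paused libraries (SD, n = 4 each; log2 change 0.36 ± 0.08 SE, adjusted p = 0.00186 by limma-trend), and that of Eif3b 319.8 ± 34.0 in control and 409 ± 12.7 in paused libraries (SD, n = 4 each; log2 change 0.36 ± 0.08 SE, adjusted p = 0.00278 by limma-trend). For Eif4e2 it was 865 ± 38.1 in control and 1027 ± 75.0 in paused libraries (SD, n = 4 each; log2 change 0.25 ± 0.06 SE, adjusted p = 0.0038 by limma-trend), and for Eif2b5 539 ± 54.3 in control and 638 ± 13.2 in paused libraries (SD, n = 4 each; log2 change 0.25 ± 0.07 SE, adjusted p = 0.0115 by limma-trend). The 2 peaks of Eif3k summed to 287 ± 13.5 in control and 351 ± 30.6 in paused libraries (SD, n = 4 each; log2 change 0.29 ± 0.09 SE, adjusted p = 0.0138 by limma-trend). At these 6 genes the groups did not overlap, and the calls held in the 8 fits with 1 library left out. With peaks counted within 5 kb in place of 20 kb, 8 of the 9 sums were called, and that of Eif2b5 was not. With the mean of log2 values over peaks in place of the sum, only Eif3k, of these 6 and of all 9, was called higher. Eef1d and Eef1g were then called lower.

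The other 3 calls did not hold in all 8 fits that left out 1 library. The 1 peak of Eif5a had values of 307, 352, 330.2 and 389 in control replicates 1 to 4 and 442, 415, 389 and 394 in paused replicates 1 to 4, without overlap (log2 change 0.25 ± 0.08 SE, adjusted p = 0.0243 by limma-trend). The 1 peak of Eif4a1, the gene of the main eIF4A helicase, had values of 359, 307, 389 and 382 in control replicates 1 to 4 and 339, 442, 515 and 462 in paused replicates 1 to 4, where paused replicate 1 lay among the controls (log2 change 0.28 ± 0.10 SE, adjusted p = 0.0344 by limma-trend). The 3 peaks of Eif3e summed to 146 ± 18.3 in control and 178 ± 8.75 in paused libraries (SD, n = 4 each; log2 change 0.29 ± 0.11 SE, adjusted p = 0.0408 by limma-trend). These calls were lost, in that order, without control replicate 1 or 3, or without paused replicate 1 (adjusted p from 0.0612 to 0.1); without control replicate 2, or without paused replicate 2, 3 or 4 (adjusted p from 0.0653 to 0.146); and without control replicate 1, 2 or 3, or without paused replicate 2, 3 or 4 (adjusted p from 0.0736 to 0.122). The 1-peak sums of Eif5a and Eif4a1 passed among genes and not among peaks, where their adjusted p were 0.0913 and 0.0897 for the same values. The lowest change of the 42 was that of Eif3g, with values of 65.9 ± 9.61 in control and 54.4 ± 7.74 in paused libraries (SD, n = 4 each) at its 1 peak (log2 change -0.27 ± 0.16 SE, adjusted p = 0.19 by limma-trend).

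After TMM rescaling, which removed the shift of 0.14 in all genes, 1 of the 42 sums was called higher and 1 lower, where 3.89% and 3.94% of all genes were. Eif4g3 stayed higher (log2 change 0.24, limma-trend adjusted p = 0.0226), and the other 8 did not pass (adjusted p from 0.0724 to 0.464). Eef2k was the gene called lower (log2 change -0.28, limma-trend adjusted p = 0.0184). With the deposited values its 6 peaks summed to 578 ± 33.5 in control and 530.3 ± 66.1 in paused libraries (SD, n = 4 each; log2 change -0.13 ± 0.08 SE, adjusted p = 0.208 by limma-trend). The DESeq2 test called Eef2k lower as well (adjusted p = 0.0429) and Eif4g3 not (adjusted p = 0.0577).

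**Figure D5:**
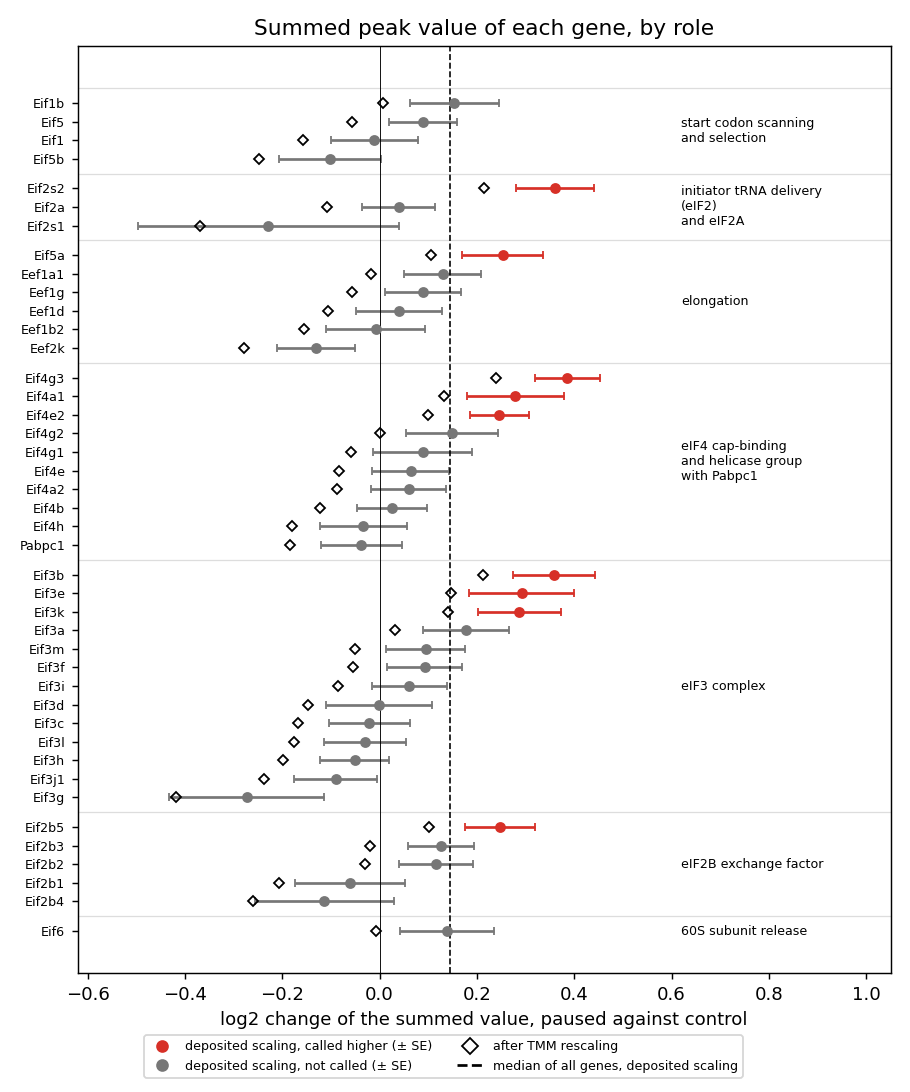
Log2 change of the summed value of each of 42 genes in paused against control cells, grouped by role, with SE bars for the deposited scaling and open diamonds for TMM rescaling. The 9 called genes lie right of the dashed line at the median of all genes (0.14), and the diamonds lie lower by about the same distance at each gene.

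Over all 233 peaks together, the summed value was 15443, 16238, 15698 and 15856 in control replicates 1 to 4, and 16606, 16841, 17426 and 17329 in paused replicates 1 to 4. The groups did not overlap, and the paused mean was 7.85% above the control mean, where the sum over all 134407 peaks was 11.5% higher. With TMM factors in place of the deposited ones the difference was 0.451%. As a share of each library's reads in peaks, these genes held 0.211% ± 0.00431 in control and 0.204% ± 0.0018 in paused libraries (SD, n = 4 each), so that the direction turned with the scaling.

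The rest of the translation pathway was read from a list of 62 other genes, covering the signalling to initiation, the eIF2 kinases and phosphatase subunits, further initiation and elongation factors, termination and recycling, and the mitochondrial factors. Of their 298 tested peaks, 17 (5.70%) were called higher and 12 (4.03%) lower, with a median log2 change of 0.04. Both shares stood on the same side of the background (11.0% and 2.91%) as those of the 43 genes. Of 61 gene sums, 11 were called higher (18.0%, against 28.0% of all genes) and 0 lower (against 1.28%). After TMM rescaling 0 were called higher and 3 lower, those of Gfm2, Etf1 and Pabpc4. The 11 included Eif4e1b, an oocyte relative of eIF4E (log2 change 0.43), Mknk2, a kinase of eIF4E (0.31), Paip2b, an inhibitor of the poly(A)-binding protein (0.28), Eif4e3 (0.26) and Pabpn1 (0.23). Also called were 2 of the 4 eIF2 kinase genes, Eif2ak1 (0.23) and Eif2ak4 (0.21), the reinitiation factor gene Eif2d (0.23), the ribosome rescue factor gene Pelo (0.30), and the mitochondrial factors Tufm (0.35) and Mrrf (0.32). At gene ends, 4 of 55 peaks were called higher (11.3% of all genes' were) and 1 lower (0.742% of all). Those of Tufm, Mknk2, Eif2ak1 and Eif4e1b rose, with changes from 0.32 to 0.43. That of Pabpc1l fell (log2 change -0.86, limma-trend adjusted p = 0.0313). The eIF4E-binding protein genes Eif4ebp1, Eif4ebp2 and Eif4ebp3 and the S6 kinase genes Rps6kb1 and Rps6kb2 were not among the called sums.

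Control replicate 1 was the deepest library, with 21161767 reads in peaks as recovered from the scaled values, and the other 7 held from 4434037 to 7238935. As a check of the labelled cell type, the 6 embryonic stem cell genes Pou5f1, Nanog, Sox2, Esrrb, Zfp42 and Tfcp2l1 had summed control values from 471 to 2020 (median 1039), and the medians of lists for 5 other lineages ran from 188 to 414. The lists overlapped, with Gata4 (659), Cdx2 (506) and Sox1 (484) above Pou5f1 (471). Sums also grow with the number of peaks, which was 4 at Pou5f1 and 38 at Esrrb. At the strongest gene-end peak the stem cell genes had control values from 27.8 (Esrrb) to 230 (Sox2), and Pou5f1 had no such peak. Tubb3, a neural gene, had 223 there, so these values do not settle the cell type. Among the markers of other lineages, Tbx6 had no peak and each of the others had at least 1, so open chromatin at these genes did not tell the lineages apart by presence alone. Between the groups the medians of the lists moved from 1039 to 1259 for the stem cell genes. They moved from 414 to 441 for endoderm, 393 to 389 for fibroblast, 188 to 216 for mesoderm, 392 to 450 for neural and 356 to 343 for trophoblast genes. The part of cell makeup in the results above was not tested.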

How the data were processed

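ATAC-seq was measured in 4 control and 4 paused libraries, with groups and replicate numbers taken from the sample titles. Per the submitters' processing notes, FastQC, Trim Galore, Bowtie2 2.4.1, MACS3 3.0.3 and DiffBind 3.16.0 were used with mm10; their order, settings and any Tn5 shift are not given in the sources used here. The deposited signal is, from the values, reads per peak divided by 1 factor per library and rounded to 2 decimals: 100% of the values in all 8 columns were whole multiples of 1 step. The authors deposited log2 concentrations and folds, and p-values with an FDR, used only where their table is named.

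Whole reads were recovered from the steps. The test was limma-trend (limma 3.58.1, R 4.3.3) on log2(value + 1), without covariates, on all 8 libraries, over the 127402 peaks averaging 10 or more, at a Benjamini-Hochberg adjusted p under 0.05. Folds on this scale understate changes of weak peaks. Sums per gene were fitted likewise. Gene spans and start sites came from RefSeq (GRCm38.p6); exons and introns were not analysed here. Alternatives were edgeR 4.0.16 and DESeq2 1.42.0 on the recovered reads, other scalings, filters, pseudocounts and windows, and each library left out. The edgeR test on recovered reads called 5 of these genes' peaks higher and 27 lower with TMM factors, and 15 and 20 with the deposited factors. Over all 127402 tested peaks it called 9084 and 7058 with TMM factors, and 16424 and 4621 with the deposited factors. The fits were tested on simulated data.

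Named were every called peak and called gene sum, the 3 highest and 3 lowest gene-end changes, and genes without a peak. The genes and lists were chosen with earlier results of these data known. A peak with 0 reads allows up to 3, a value of 1.04 in control replicate 1 and 5.08 in control replicate 3; such limits cover counting error only, since copies made by PCR are not independent molecules.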

Additional observations from a re-analysis of the deposited data

Results flagged for a closer look

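Of 88 sets of 4 libraries (reads in peaks, the summed value, and each named peak and called gene sum, in control or paused cells), 7 had 1 library whose gap to the nearest of the others divided by the range exceeded Dixon's 95% critical value for 4 samples, which chance gives in about 1 of 20 sets. Control replicate 1 had 21161767 reads in peaks, against 4434037 to 6262445 in the other controls. At the Eif2b5 peak chr16:20480242-20480442, control replicate 4 had 114.62, against 77.44 to 83.6 in the other controls. At the Eif4a2 peak chr16:23111559-23111759, paused replicate 4 had 31.63, against 13.96 to 16.15. At the Eif4e2 peak chr1:87239187-87239387, control replicate 2 had 84.8, against 105.09 to 108.37. The Eef1d peak chr15:75906565-75906765 stood out in both groups, with 11.94 in control replicate 2, against 20.57 to 22.01, and 1.55 in paused replicate 3, a single read, against 6.31 to 7.03. The summed value of Eif3e was 173.4 in control replicate 4, against 134.47 to 139.73 in the other controls.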

How the results depend on the processing

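Peaks called higher and lower numbered 14 and 15; in edgeR with TMM they were 5 and 27, in DESeq2 2 and 5, after TMM rescaling 3 and 18, after the loess correction 2 and 10, and after scaling to total reads 2 and 23. Over all 127402 tested peaks the main test called 13958 higher and 3702 lower. There edgeR with TMM called 9084 and 7058, and DESeq2 3902 and 1892. After TMM, loess and total-read scaling, in that order, they were 7630 and 5289, 6497 and 4459, and 5743 and 6827. With a minimum mean of 50, 14 and 0 peaks of these genes were called, where 10159 and 751 of all 45273 tested peaks were. By strength, 1 higher call lay under a mean of 50 and 0 lower calls at or above it. With 1 library left out the calls in these genes ran from 5 to 12 and from 8 to 13. Those over all tested peaks ran from 8980 to 12689 and from 2314 to 3871. Gene-end calls (3) were 0 in edgeR with TMM, in DESeq2 and after TMM, loess or total-read scaling, and from 0 to 4 with 1 library left out. Gene sum calls (9, all of them rises) ran from 7 to 9 with 1 library left out. In edgeR with TMM and after those 3 scalings they were 2, a rise of Eif4g3 and a fall of Eef2k. In DESeq2 the fall of Eef2k was the 1 call. The mean of log2 values over peaks gave 3 calls, a rise of Eif3k and falls of Eef1d and Eef1g. The median log2 change of the 42 genes was then -0.08, against 0.06 for all genes. Calls in the other translation genes (29) were 19 with a minimum mean of 50, 4 in DESeq2, 10 after the loess correction, 19 with a 5 kb window, and from 14 to 25 with 1 library left out. The difference in summed value (7.85%) was 0.451% with TMM factors, -3.30% as a share of reads, and from 7.03% to 8.84% with 1 library left out. The log2 change of the Eef2k start peak (-0.06) ran from -0.13 without paused replicate 1 to 0.046 without paused replicate 2 with 1 library left out, and from -0.27 after the loess correction to -0.04 in edgeR with the deposited factors otherwise. With fewer samples or tested peaks calls can be lost for that alone; otherwise the cause was not tested.

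Libraries of the same replicate number were weakly alike: the correlations of their deviations from the group means ran from 0.0358 to 0.133. Those of differently numbered libraries ran from -0.105 to 0.0703. Of the 4 control libraries, 3 correlated best with their own number, and so did 3 of the 4 paused libraries. Whether the libraries were made in pairs was not tested, and the main test took them as unpaired. A replicate block gave 18 higher and 16 lower peaks, 6 gene-end calls and 9 gene sums. Over all tested peaks it gave 17371 higher and 4623 lower calls, against 13958 and 3702 without it. Depth limits the weak peaks most: at 4434037 reads in peaks the median peak held 18 reads, against 91 in control replicate 1.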

Other observations

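At 14 further peaks of these genes the 4 paused values and the 4 control values did not overlap, while the limma-trend test did not pass. The share of all tested peaks that did so without a call was not computed. With called peaks included, paused values lay above all controls at 17 of 222 peaks (13.0% of all tested peaks). They lay below at 20 (4.36% of all). Paused values were higher at 6 of the 14 peaks without a call, with log2 changes from 0.17 to 0.43 and limma-trend adjusted p from 0.0578 to 0.25. Of these 6, 4 were the gene-end peaks of Eef1g, Eif3k, Eif5a and Eef1d. The Eef1d gene-end peak had values of 195 ± 13.3 in control and 234 ± 17.8 in paused libraries (SD, n = 4 each), while the peak inside the same gene fell. The others were an Eif3m peak 17774 bp from the gene and an Eif2s2 peak 6608 bp from it. Paused values were lower at 8, with log2 changes from -0.86 to -0.44 and adjusted p from 0.0668 to 0.297, at Eif5b, Eif4h, Eif4b (2 peaks), Eif3j1, Eif3l (2 peaks) and Eif2b1. Mean values of the 6 ran from 49.4 to 377 and of the 8 from 11.7 to 20.6. These peaks were singled out after their values were seen.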
